A study of Homo sapiens with 12 samples.

Results

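Gene deserts are long stretches of the human genome that hold no protein-coding gene. The regions described here were open regions more than 500 kb from every protein-coding gene body of the RefSeq annotation on GRCh38. They were found by merging the peaks of 9 lists on chromosomes 1 to 22 and X, where peaks that shared at least 1 bp became 1 region, and by leaving out the centromere bands, where satellite repeats gather peaks. Of 399183 merged regions, 382827 lay outside those bands, and 28712 of these, or 7.50%, were gene-desert regions. Another 12426 regions were as far from coding genes but lay in the bands, and were left out.

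The data were ATAC-seq peak lists from U2OS, an osteosarcoma cell line. In ATAC-seq the Tn5 transposase cuts accessible DNA and leaves sequencing adapters there, so that open chromatin appears as peaks. The 12 samples formed 6 groups of 2, and what is called the FOXA2 set here held samples labelled wild type, samples with an inducible, Flag-tagged full-length FOXA2, and samples with a FOXA2 that lacks its C-terminal domain, which is called the CTD deletion. The SOX2 set held a wild type whose label also names the SOX2 cell line, samples with full-length SOX2, and samples carrying a fusion protein, SOX2-FOXA2 CTD, in which the C-terminal domain of FOXA2 is joined to SOX2. The constructs were driven by the Tet-on system, and the text for every sample, both wild types included, gives doxycycline at 500 ng/ml for 4 days, whereas the treatment field of the wild types is not filled in. Whether the lines were single clones is not given in the sources used here. Each sample of the FOXA2 set had a peak list of its own, while in the SOX2 set the lists, 1 per group, came from the IDR procedure, which ranks peaks by how reproducible they are between inputs. All U2OS cells of the study carry whatever gene copy changes that line has, and copy number was not measured here.

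FOXA2 is a forkhead transcription factor of endoderm and liver, and SOX2 is an HMG-box factor of stem cells and neural progenitors. Both are known as pioneer factors, which bind their sites in closed chromatin and help to open it. Gene deserts are often closed, late-replicating and attached to the nuclear lamina, and some hold enhancers that act over long distances on the developmental genes at their borders. They also hold genes for long non-coding RNAs (lncRNAs) and microRNAs, which the distance rule does not exclude.

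The gene deserts covered 232.58 Mb of 2829.68 Mb of sequence, or 8.22%, once the bands and stretches of more than 1 Mb with no region in any list were removed. They formed 316 blocks, of which 311 held at least 1 gene-desert region. Some coding genes placed on alternate scaffolds carry scaffold coordinates in the gene table, which can shorten or split a block or hide a desert region, and the block count and desert length were not corrected for it. The density was 123.45 gene-desert regions per Mb, against 136.35 regions per Mb elsewhere. The regions had a median width of 409 bp and lay a median of 756180 bp from the nearest coding gene, and 7400 of them lay more than 1 Mb away. The 2 just inside the threshold were 500039 and 500070 bp from a coding gene, and the 2 just outside were 500000 and 499934 bp away. Of the 28712, 22.5% overlapped an annotated lncRNA gene, 1.36% a pseudogene, and 75.9% no annotated gene at all. Repeat-rich ground was not wholly removed, since 507 lay on the short arms of chromosomes 13, 14, 15, 21 and 22 and 1317 within 2 Mb of a centromere band.

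A small group of 115 gene-desert regions, 0.40%, overlapped the promoter window of an lncRNA gene, taken as 250 bases before to 50 bases after its start. Of these windows 5 are printed because they stand for the kinds of gene-desert region described below. Each is the reference sequence from RefSeq on GRCh38.p14, written 5′ to 3′ in the direction of the gene. The window of LOC105370470 (chr14:43308395-43308694, plus strand, 1195455 bp from the nearest coding gene) was called in all 4 libraries with a FOXA2 construct and in none of the 5 other lists. That of CASC17 (chr17:71202130-71202429, minus strand) was called in both full-length FOXA2 libraries alone. Those of LINC01707 (chr1:69055648-69055947, plus strand) and MIR924HG (chr18:39751946-39752245, minus strand) had entries with SOX2 and the fusion alone, and that of LINC03051 (chr3:117997530-117997829, minus strand) was called in all 9 lists. Capitals mark 7-letter words found on either strand, namely the forkhead words TGTTTAC and TGTTTGC, the SOX words CATTGTT and CTTTGTT, and the AP-1 word TGAGTCA. Forkhead and SOX words can share letters.
LOC105370470: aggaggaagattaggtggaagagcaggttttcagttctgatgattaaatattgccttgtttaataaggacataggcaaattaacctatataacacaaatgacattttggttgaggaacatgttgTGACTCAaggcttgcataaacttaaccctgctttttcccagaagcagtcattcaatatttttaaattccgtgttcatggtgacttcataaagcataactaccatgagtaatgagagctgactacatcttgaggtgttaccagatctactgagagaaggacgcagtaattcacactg
CASC17: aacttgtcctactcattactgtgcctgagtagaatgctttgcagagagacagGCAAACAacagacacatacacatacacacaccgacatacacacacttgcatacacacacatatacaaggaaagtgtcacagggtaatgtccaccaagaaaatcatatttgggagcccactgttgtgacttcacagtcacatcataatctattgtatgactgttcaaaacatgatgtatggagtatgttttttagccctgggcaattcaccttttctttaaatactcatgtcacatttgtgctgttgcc
LINC01707: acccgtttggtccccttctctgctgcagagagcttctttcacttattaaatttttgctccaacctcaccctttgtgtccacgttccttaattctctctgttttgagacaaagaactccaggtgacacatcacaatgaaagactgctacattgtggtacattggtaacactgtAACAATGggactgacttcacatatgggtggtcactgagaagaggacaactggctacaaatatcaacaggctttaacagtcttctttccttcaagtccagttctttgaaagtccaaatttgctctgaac
MIR924HG: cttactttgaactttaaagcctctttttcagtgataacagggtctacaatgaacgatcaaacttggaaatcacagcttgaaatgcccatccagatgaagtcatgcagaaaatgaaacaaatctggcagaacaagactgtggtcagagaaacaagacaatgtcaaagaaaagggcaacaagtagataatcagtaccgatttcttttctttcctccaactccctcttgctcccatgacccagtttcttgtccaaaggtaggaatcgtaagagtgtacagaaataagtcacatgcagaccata
LINC03051: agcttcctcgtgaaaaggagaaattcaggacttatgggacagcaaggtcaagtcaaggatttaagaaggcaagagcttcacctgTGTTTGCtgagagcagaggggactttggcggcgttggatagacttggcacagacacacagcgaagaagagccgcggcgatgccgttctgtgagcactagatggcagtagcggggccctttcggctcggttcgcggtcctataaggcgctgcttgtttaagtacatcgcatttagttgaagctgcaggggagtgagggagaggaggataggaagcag

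The word in LOC105370470 is the AP-1 word read on the other strand, and starts at position -126 counted from the gene's start. CASC17 holds a forkhead word at -198 and LINC03051 one at -166, while LINC01707 holds a SOX word at -78 and MIR924HG none of the words. Over 631 lncRNA promoter windows in gene deserts, 10.3% held a forkhead word, 14.9% a SOX word and 6.18% the AP-1 word. The shares over 12117 lncRNA promoter windows outside deserts were 8.90%, 10.8% and 6.49%, and over all 34961 promoter windows of the table they were 7.16%, 8.20% and 4.92%. Of the 129 desert windows that overlapped an open region, 11.6% held the AP-1 word, against 4.78% of the 502 that overlapped none. Forkhead words stood in 1 of 17 desert windows gained with a FOXA2 construct. Desert windows were poorer in G and C, with a median of 39.0% against 50.7% for lncRNA windows outside, and words rich in A and T are more frequent in such sequence. These are matches of letters, and binding was not measured.

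At the LOC105370470 window the peaks had fold enrichments, each over the background of its own library, of 5.22 and 11.9 with full-length FOXA2 and of 5.80 and 5.15 with the CTD deletion. At CASC17, an lncRNA gene named for cancer susceptibility, they were 4.25 and 7.50 with full-length FOXA2. At LINC01707 the deposited −log10 p was 13.6 with SOX2 and 12.96 with the fusion, and at MIR924HG, the host gene of a microRNA, it was 27.6 and 21.04. None of these 4 windows had a peak or entry in any of the 3 wild-type lists. At LINC03051 the fold enrichment was 4.01 and 4.99 in the libraries labelled wild type, 5.47 and 6.14 with full-length FOXA2, and 4.63 and 6.09 with the CTD deletion, and the −log10 p was 22.5, 6.23 and 18.3 in the wild type, SOX2 and fusion lists of the SOX2 set. Its values in wild-type and construct libraries of the FOXA2 set overlapped.

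The 9 lists differed in length and in how they were called, which bears on every share below. On chromosomes 1 to 22 and X outside the bands they held from 18783 to 173158 peaks, and the lists labelled wild type were the shortest of the FOXA2 set. The second list labelled wild type and the second full-length list had no mitochondrial peak and name a p threshold in their peak identifiers. The remaining 4 FOXA2-set lists each had 2 peaks on the mitochondrial chromosome, so the lists are treated as 2 processing batches. Cutoffs differed even within a batch. The lowest −log10 p was 3.44 and 5.43 in the libraries labelled wild type, 2.01 and 5.22 with full length, and 2.01 in both CTD deletion libraries. A gain could thus rest on construct peaks weaker than any peak of the wild-type lists. Read depth is unknown. Presence of a peak over the FOXA2 gene did not separate the labels, as all 9 lists had at least 1 there. The highest fold enrichment there was 5.19 and 14.7 in the libraries labelled wild type and 5.76 and 44.3 with full-length FOXA2. With the CTD deletion it was 6.94 and 7.07. These values overlapped across batches, while within each batch the library labelled wild type had the lowest. The Wilson 95% intervals given below cover counting error only, and regions of 1 list are not replicates.

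The share of peaks in gene deserts was lower in every wild-type list than in every construct list. It was 3.67% (690 of 18783 peaks) and 4.32% (928 of 21493) in the 2 libraries labelled wild type of the FOXA2 set. With full-length FOXA2 it was 7.81% (12128 of 155359) and 6.19% (3353 of 54163), and with the CTD deletion 5.73% (4228 of 73780) and 6.90% (9794 of 141883). In the SOX2 set it was 4.41% (4793 of 108612 entries) in wild type, 6.43% (9100 of 141544) with SOX2 and 6.87% (11888 of 173158) with the fusion. All 9 lists lay below the 8.22% of bases that are gene desert. Expressed as density, gene deserts held from 42.6% as many peaks per Mb as the rest of the sequence in the first library labelled wild type to 94.6% in the first full-length library.

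Full-length FOXA2 averaged 6.998% ± 1.14 (SD, n = 2) and the libraries labelled wild type 4.00% ± 0.455 (SD, n = 2), a difference of 3.00 percentage points (exact permutation test, two-sided, p = 0.333). The CTD deletion averaged 6.32% ± 0.829 (SD, n = 2), 2.32 points above wild type (exact permutation test, two-sided, p = 0.333). In both comparisons the groups did not overlap, and 0.333 is the smallest p that 2 libraries against 2 can give. The 4 construct libraries together averaged 6.66% ± 0.905 (SD, n = 4), 2.66 points above wild type (exact permutation test, two-sided, p = 0.0667), which is the smallest value that test can give. Full length and the CTD deletion overlapped and differed by 0.68 points (exact permutation test, two-sided, p = 0.667), and leaving out the first full-length library turned that difference to -0.13 points. The 2 samples of a group are labelled as biological replicates, without saying whether they came from separate cultures.

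Lists of equal length and lists of 1 batch gave differences in the same direction. When each library of the FOXA2 set was cut to its 18783 strongest peaks by −log10 p, the shares were 3.67% and 4.37% in wild type, 7.16% and 6.19% with full-length FOXA2, and 6.80% and 5.75% with the CTD deletion. Within the batch of 2 lists, full length exceeded wild type by 1.87 points. Within the other batch full length exceeded wild type by 4.13 points, and the 2 CTD deletion libraries exceeded it by 2.06 and 3.23 points. At a common −log10 p of at least 5.43 these differences were, in the same order, 1.87, 3.80, 2.85 and 2.33 points. By covered bases instead of peaks the second library labelled wild type had 6.39% in deserts. It holds 15 desert peaks wider than 5 kb, the widest of 49825 bp, and the second full-length library holds 11, the widest of 85600 bp, while the other lists hold none. The difference between the CTD deletion and wild type was then 1.29 points and the groups overlapped (exact permutation test, two-sided, p = 0.667). Without all peaks wider than 5 kb, a check added after the values were seen, the covered-base share of the second library labelled wild type was 3.93% and that of the second full-length library 5.65%. The CTD deletion then exceeded wild type by 2.51 points without overlap (exact permutation test, two-sided, p = 0.333).

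In the SOX2 set there was 1 list per group, so that no test was possible. SOX2 lay 2.02 percentage points above its wild type (interval 1.84 to 2.19, counting error only) and the fusion 2.45 points above it (2.28 to 2.62). The fusion exceeded SOX2 by 0.436 points (0.261 to 0.611). Among entries with a global IDR of at most 0.05, the conventional limit for reproducible peaks, the shares were 3.71% in wild type, 6.11% with SOX2 and 7.01% with the fusion.

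**Figure D1:**
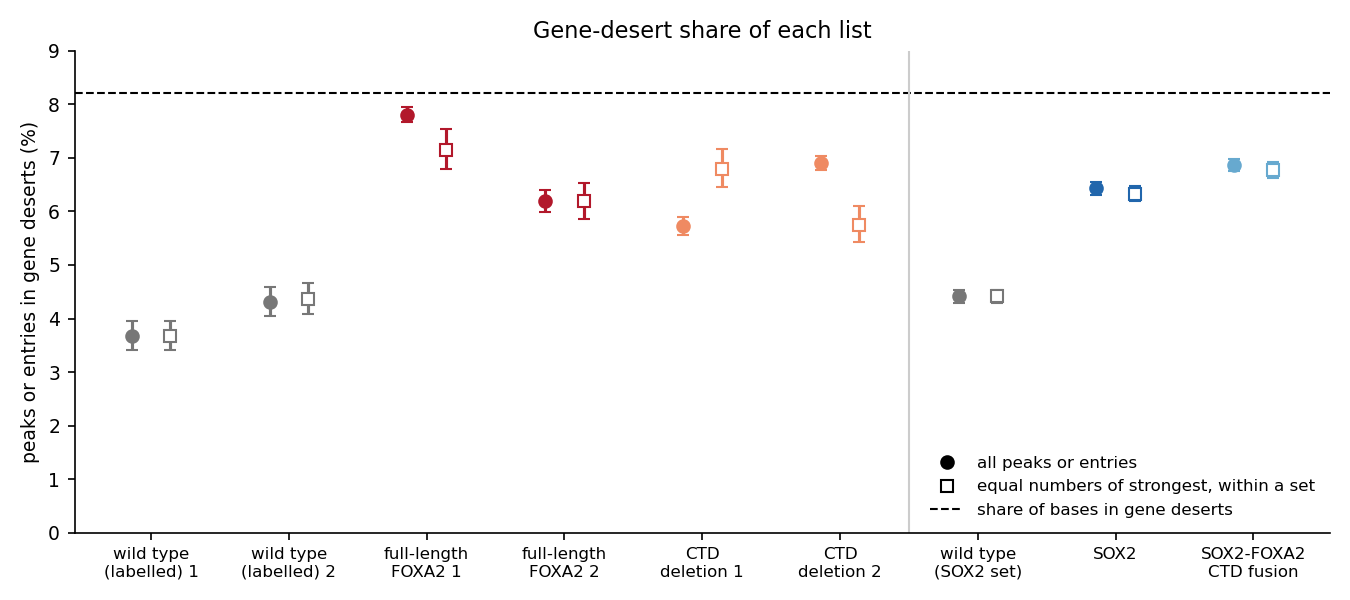
Share of peaks or entries in gene deserts (%, vertical axis) in each of the 9 lists, with all peaks (filled circles) and with equal numbers of the strongest peaks within a set (open squares); bars are Wilson 95% intervals and the dashed line is the gene-desert share of bases, 8.22%. The 3 wild-type lists lie between 3.67% and 4.41%, and the 6 construct lists between 5.73% and 7.81%.

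Regions opened with a construct were more often in gene deserts than regions that were open throughout. A region is called gained with a FOXA2 construct when both libraries of that construct had a peak and neither library labelled wild type did, and gained with SOX2 or the fusion when it had an entry at an IDR of at most 0.05 there and no entry at all in the wild type of the SOX2 set. Of all regions, 6.42% were gained with full-length FOXA2, and of the gene-desert regions 2113, or 7.36%. Gains with the CTD deletion made up 6.29% of all regions and 6.26% of the desert regions, 1796 of them. SOX2 gains made up 5.48% of all regions and 7.67% of the desert regions (2201), and fusion gains 8.27% and 11.8% (3374). The desert shares of the gained sets were 8.59% (interval 8.25 to 8.95) for full-length FOXA2, 7.45% (7.13 to 7.79) for the CTD deletion, 10.5% (10.1 to 10.9) for SOX2 and 10.7% (10.3 to 10.999) for the fusion. By these definitions SOX2 and fusion gains lay above the 8.22% of bases. If absence in wild type meant only no entry at an IDR of at most 0.05, they were at 8.47% and 9.29%. The SOX2 gains were then near the share of bases, so their excess depended on the definition of absence. The FOXA2 gains lay near the share of bases, on a side that depended on the libraries used and the list length. Full-length gains were at 7.94% without the first library labelled wild type, 8.05% without the second and 7.85% without the first full-length library. With equal numbers of peaks per list, full-length gains were at 11.5% and CTD deletion gains at 10.4%. Only 3643 full-length gains and 2683 CTD deletion gains were then left, of 24590 and 24095 with all peaks. The number of gains thus depended strongly on list length.

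The regions open in every condition were the opposite. The 2.60% of all regions called in both libraries labelled wild type had 2.87% of their number in deserts (286 of 9956), the 17.3% with an entry in every list of the SOX2 set had 3.95% (2613 of 66115), and the 2.09% called in all 9 lists had 2.35% (188 of 8000). The desert share was 7.93% of regions called in 1 list and 8.74% of those in 2 lists, and was lower at each further step to 2.35% at 9 lists. Regions called in 1 list only, 54.2% of all regions, made up 57.3% of the gene-desert regions (16448). Of the gene-desert regions with a peak in the first full-length library, 53.8% had none in any other list, and of its other regions 45.6%. The shares were 41.1% in deserts and 36.1% outside in the second CTD deletion library, 5.73% and 5.13% in the second full-length library, and 1.95% and 0.986% in the first library labelled wild type. Single calls were thus frequent in 2 libraries both in and outside deserts. A gain with a FOXA2 construct asked for both libraries, which leaves such single calls out. A gain with SOX2 or the fusion rested on 1 list. In the fusion list, at any IDR, 27.6% of the desert regions and 21.3% of the others had no call in another list. In the SOX2 list the shares were 10.9% and 9.22%.

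Losses were few, but every wild-type list was shorter than the construct lists of its set. A longer list leaves fewer regions without a call, so the number of losses is tied to list length. With lists of 1 batch cut to equal numbers, 8256 regions were in wild type alone and 8705 in full length alone. In the other batch these counts were 11343 and 11812. Lists of equal length hold such counts close together by construction. The counts cannot show whether regions opened more often than they closed, which was not tested. Regions lost with full-length FOXA2 were called in both libraries labelled wild type and in neither full-length library. They were 0.1% of all regions and included 16 gene-desert regions among 384, or 4.17%. The 0.0313% lost with the CTD deletion included 2 of 120. The 1.53% lost with SOX2, which passed the IDR limit in wild type and had no entry with SOX2, included 293 of 5867, or 4.99%, and the 1.13% lost with the fusion included 218 of 4321, or 5.05%.

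**Figure D2:**
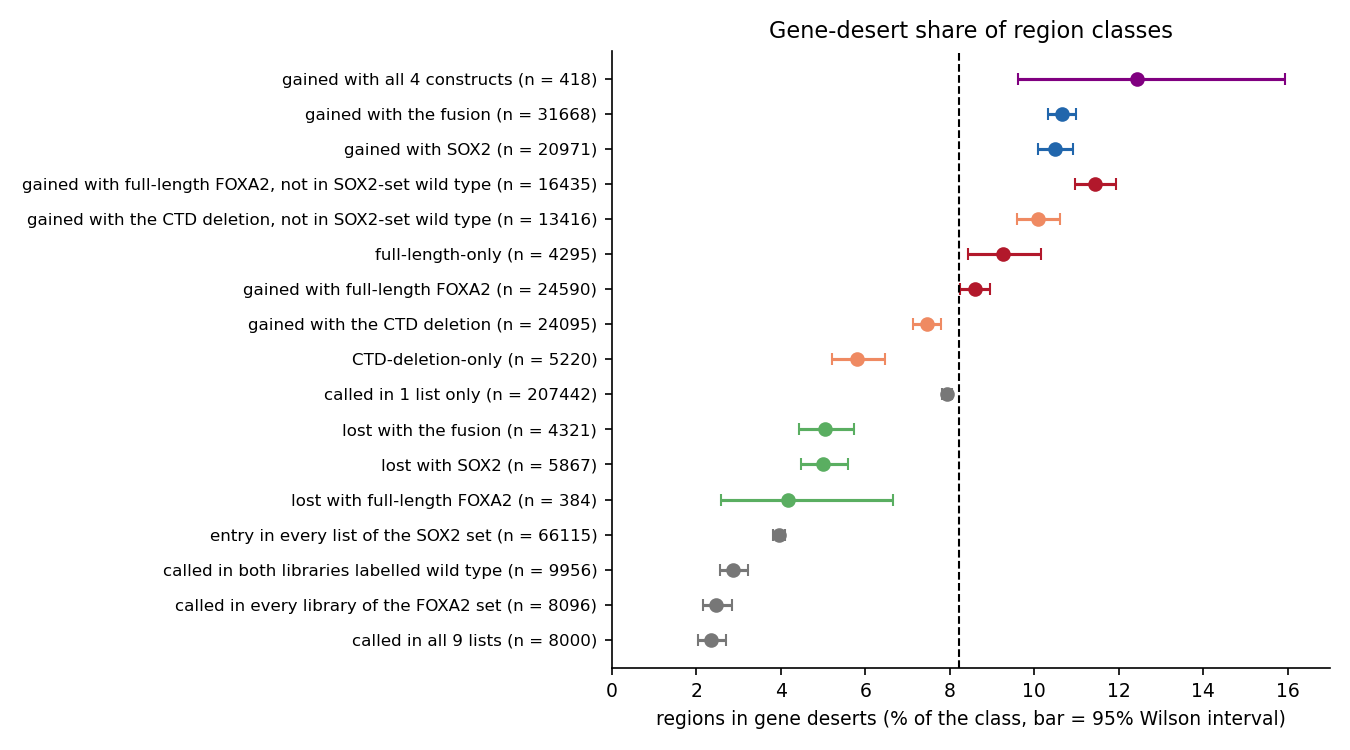
Share of each class of regions that lies in gene deserts (%, horizontal axis), with Wilson 95% intervals covering counting error only and the number of regions in each class; the dashed line is the gene-desert share of bases, 8.22%. Regions called in all 9 lists lie at 2.35% and regions gained with a construct at 7.45% or higher, while the few gained with all 4 constructs have the widest interval.

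The wild type of the SOX2 set offered a second baseline for the FOXA2 gains. Of desert regions gained with full-length FOXA2, 10.98% had an entry there, against 35.2% of gains outside deserts, and for the CTD deletion the shares were 24.6% and 45.9%. When regions with such an entry were left out, a check added after the values were seen, 11.4% of the full-length gains (1881 of 16435, 4.29% of all regions) and 10.1% of the CTD deletion gains (1355 of 13416, 3.5% of all regions) lay in deserts. These shares are near the 10.5% and 10.7% of the SOX2 set, which used this baseline. The FOXA2 set and the SOX2 set were called in different ways, and the part of that in the baseline's effect was not tested.

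Distance to coding genes gave a graded picture rather than a step at the threshold. In regions called in all 9 lists the share of regions divided by the share of bases was 1.63 in or touching coding genes and was lower with distance, at 0.300 between 500 kb and 1 Mb and 0.247 beyond 1 Mb. For SOX2 gains the ratio was 0.972 in genes, 0.638 within 10 kb of them, 1.28 between 500 kb and 1 Mb and 1.26 beyond 1 Mb, and the fusion followed it closely with 1.30 and 1.28 in the last 2 classes. Full-length FOXA2 gains had 1.14 in genes, 0.781 between 100 and 250 kb, 1.02 between 500 kb and 1 Mb and 1.10 beyond 1 Mb. CTD deletion gains had 0.929 and 0.846 in the last 2 classes.

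**Figure D3:**
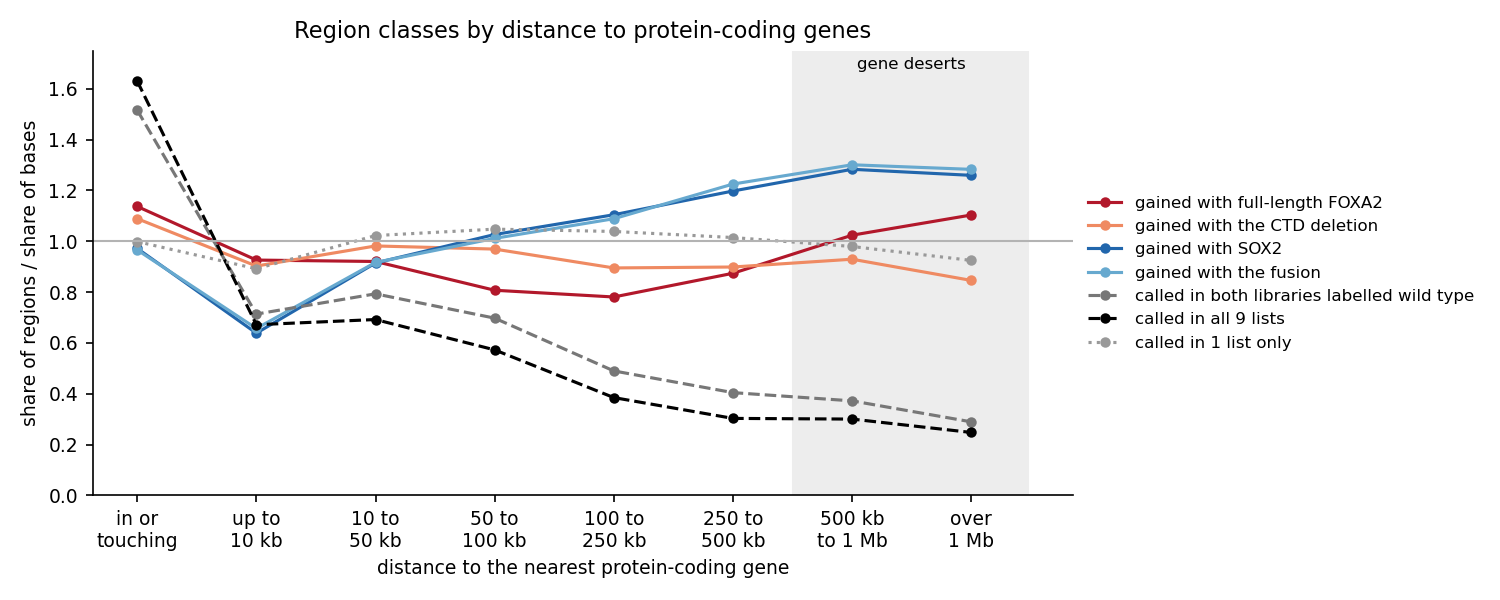
Share of regions divided by share of bases (vertical axis) in 8 classes of distance to the nearest protein-coding gene, for regions gained with each construct (solid lines), called in wild type or in all 9 lists (dashed) and called in 1 list (dotted); the shaded classes are the gene deserts. Regions called in all 9 lists go from 1.63 in genes to 0.247 beyond 1 Mb, whereas SOX2 gains reach 1.28 and 1.26 in the desert classes.

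In the FOXA2 set the desert share of gains was higher among the strongest peaks than among the weakest. Each list was split into 5 classes by percentile of strength, in steps of 20, with ties making the classes unequal, where strength is the fold enrichment in the FOXA2 set and the −log10 p in the SOX2 set. Among peaks in gained regions the desert share went from 7.92% in the weakest class to 11.5% in the strongest in the second full-length library, and from 3.89% to 10.4% in the first CTD deletion library. In the first full-length library it went from 6.93% to 9.88%, and in the second CTD deletion library from 5.89% to 7.95%. In the SOX2 set a gain had to pass the IDR limit, so the weaker classes held too few gains to compare. With SOX2 the share was 13.7% in the weakest class, over 73 entries. From the middle class to the strongest it rose, at 9.16%, 9.75% and 12.6%. With the fusion it was 12.5% in the weakest class, over 56 entries. From the middle class to the strongest it was 10.9%, 9.81% and 11.7%, without a steady rise. Peaks of these libraries in regions that were also open in wild type had 2.11% to 3.08% of the strongest class in deserts in the 4 FOXA2 construct libraries, and 3.78% and 4.40% with SOX2 and the fusion. In the weakest class those wild-type regions had higher desert shares in 3 libraries, at 12.7%, 10.7% and 13.8%, over 370, 759 and 435 peaks. Fold enrichments of desert and other peaks had the same median in 4 of the 6 libraries of the FOXA2 set, for example 3.31 in the first full-length library and 6.48 in the second.

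**Figure D4:**
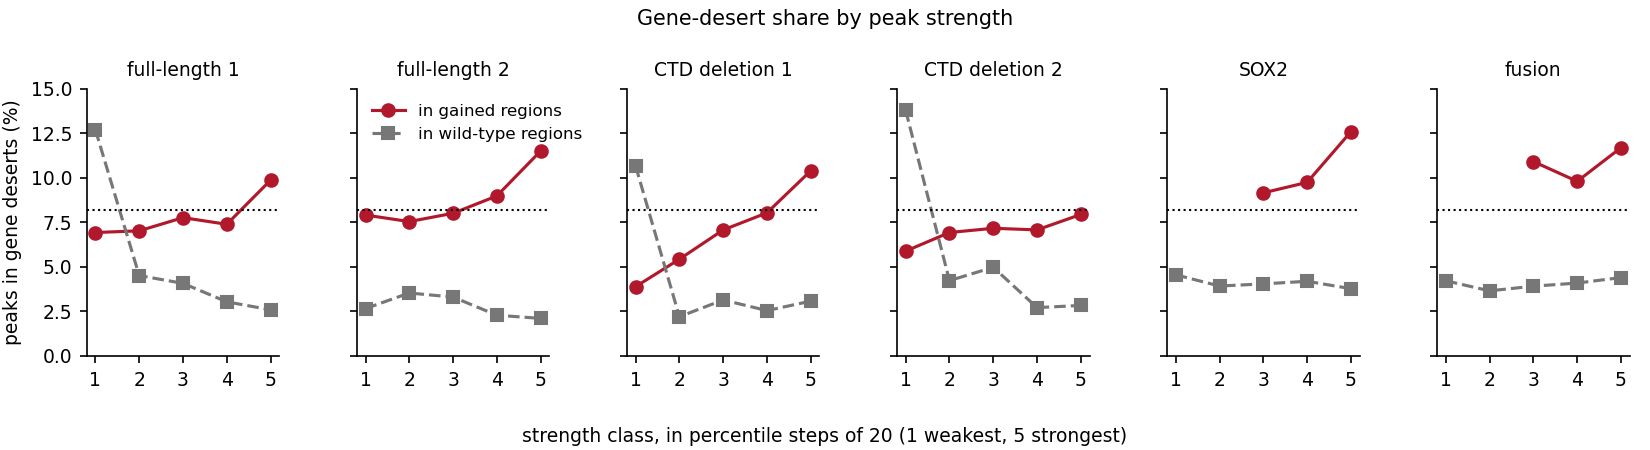
Share of peaks in gene deserts (%, vertical axis) by strength class of each list from weakest to strongest (horizontal axis), for peaks in regions gained with the construct (circles; classes with under 100 such peaks not drawn) and in regions also called in wild type (squares); the dotted line is the gene-desert share of bases. In each of the 6 lists the strongest class has a higher desert share among gained regions (7.95% to 12.6%) than among wild-type regions (2.11% to 4.40%).

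The C-terminal domain of FOXA2 was examined by asking how many gains of one construct were called with the other. Desert gains of full-length FOXA2 had a peak in 54.6% and 75.2% of cases in the 2 CTD deletion libraries, a mean of 64.9% ± 14.6 (SD, n = 2). Gains outside deserts had 54.3% and 76.4%, close to the desert share in each library. Desert gains of the CTD deletion had a peak in 79.7% and 60.6% of cases in the 2 full-length libraries, a mean of 70.2% ± 13.5 (SD, n = 2), against 72.3% and 54.1% of gains outside deserts. The share was higher in deserts in both full-length libraries, and with equal numbers of peaks it was 61.6% ± 1.52 (SD, n = 2) in deserts and 53.8% outside, a difference that was not tested. The means depended on which libraries defined the gains. Without the second full-length library the 64.9% became 21.99% (23.7% outside deserts), and without the first CTD deletion library the 70.2% became 28.5% (26.8% outside). When the peak had to cover 50% of the region they were 40.04% and 42.98%. At a common −log10 p of at least 5.43 these means were 43.5% for desert gains of full length and 75.2% for those of the CTD deletion, against 42.5% and 66.5% outside deserts.

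Regions called with only 1 of these constructs differed in how often they lay in deserts. Full-length-only regions, with peaks in both full-length libraries and none in wild type or the CTD deletion, were 1.12% of all regions, and 398 of 4295 lay in deserts, or 9.27% (interval 8.44 to 10.2). CTD-deletion-only regions were 1.36% of all regions, and 303 of 5220 lay in deserts, or 5.80% (5.20 to 6.47). The intervals do not overlap, but they cover counting error only. The second full-length library was of another processing batch than both CTD deletion libraries, so that construct and batch cannot be fully told apart for this pair of classes.

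SOX2 and the fusion shared most desert gains. Of 2201 desert regions gained with SOX2, 97.8% had an entry of some kind in the fusion list and 80.1% passed the IDR limit there, against 97.8% and 76.7% outside deserts. Of 3374 desert regions gained with the fusion, 84.6% had an entry with SOX2 and 52.2% passed, against 85.4% and 50.9% outside. The same 1762 regions passed in both, or 80.1% of the SOX2 gains and 52.2% of the fusion gains in deserts. Desert SOX2 gains had a peak in 15.4% and 6.13% of cases in the full-length FOXA2 libraries and in 8.13% and 14.8% in the CTD deletion libraries, near the 14.7%, 6.45%, 9.04% and 15.96% of SOX2 gains outside deserts. The 0.109% of all regions gained with all 4 constructs included 52 desert regions among 418, or 12.4% (9.61 to 15.95).

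Gained desert regions were close in width to other gains of the same construct, and gains of the SOX2 set lay closer together in deserts than outside. Their median width was 717 bp with full-length FOXA2, 770 bp with the CTD deletion, 802 bp with SOX2 and 762 bp with the fusion, against 751, 795, 782 and 752 bp outside deserts. The median distance to the next gain was 32994 bp for full-length FOXA2 in deserts and 35102 bp outside. For the CTD deletion it was 37991 bp and 37804 bp. For SOX2 it was 31144 bp in deserts and 39418.5 bp outside, with 19.9% and 14.04% of gains within 10 kb of the next, and for the fusion it was 20816 bp and 26127 bp, with 27.1% and 21.4%. Distance to the next region of a class also depends on how many such regions there are per Mb, which was not corrected for. Spacing was thus not measured apart from density, and was not tested. Desert regions called in all 9 lists were farther apart, 226220 bp against 72069.5 bp outside.

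Single regions show the range. Among desert gains of full-length FOXA2 the highest-ranked in both libraries was chr18:39192263-39193185, 1417575 bp from the nearest coding gene, with fold enrichments of 17.3 and 47.0 with full length and 4.34 and 7.76 with the CTD deletion, and no peak in the other lists. The second, chr8:20864658-20865327, 560695 bp from LZTS1, a tumour suppressor gene, had 12.1 and 41.6 with full length, none in the first CTD deletion library and 9.76 in the second. The third, chr6:58178646-58179772, 531796 bp from PRIM2, a DNA primase subunit gene, had 7.47 and 26.3 with full length and 3.38 in the second CTD deletion library alone. It lies within 2 Mb of a centromere band. All 3 had their highest value in the second full-length library, where fold enrichments ran higher throughout.

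The desert regions that ranked highest among gains of the CTD deletion were also called with full-length FOXA2. The first, chr4:136373860-136374646, lies 1144272 bp from PCDH18, a protocadherin adhesion gene, and had 13.6 and 12.4 with the CTD deletion and 11.7 and 12.3 with full length. The second, chr8:137062299-137063698, 1066325 bp from FAM135B, had 9.58 and 8.99 against 6.25 and 15.7. The third, chr4:160510631-160511422, 872475 bp from FSTL5, had 8.84 and 10.0 against 5.38 and 8.52, and it had entries in the SOX2 set too, with a −log10 p of 9.97 in wild type.

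The highest-ranked desert regions called with only 1 construct stood between percentiles 83.9 and 97.5 of strength in the lists that called them. Strength over these classes as a whole was not summarised. Of the full-length-only desert regions the highest was chr3:117267608-117268224, 822121 bp from LSAMP, a neuronal adhesion gene, with fold enrichments of 5.83 and 11.3. The next were chr1:189216317-189216977, nearest to BRINP3, with 5.56 and 9.89, and chr16:35259734-35260394 with 4.44 and 9.89. The chr16 region lies within 2 Mb of a centromere band. Among CTD-deletion-only desert regions chr8:129131392-129132001, nearest to GSDMC, a gasdermin pore gene, had 5.74 and 6.20. The region chr5:89584175-89584845, 680070 bp from MEF2C, a transcription factor gene of muscle and neurons, had 5.64 and 7.02, and chr10:109343085-109344006, nearest to XPNPEP1, an aminopeptidase gene, had 5.08 and 5.66. The last 2 also had entries in all 3 lists of the SOX2 set, where the wild type gave a −log10 p of 12.2 and 15.2.

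With SOX2 the highest desert gain was chr8:114803611-114804603, 603893 bp from TRPS1, a zinc-finger gene of cartilage and bone, with a −log10 p of 59.3 with SOX2 and 41.1 with the fusion. It was followed by chr11:38835692-38836679, 1277520 bp from LRRC4C, a synaptic adhesion gene, at 45.7 and 39.3, and by chr11:97489105-97490160, nearest to JRKL, at 45.2 and 24.5. The first 2 also led the fusion gains, and the third there was chr21:8763686-8764989 on a short arm, at 40.8 with SOX2 and 38.9 with the fusion. None of the 4 had a peak in any list of the FOXA2 set or in the wild type of the SOX2 set. The −log10 p depends on depth, so it ranks entries within a list only.

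Of the regions gained with all 4 constructs, chr5:104998072-104999268, 1435283 bp from NUDT12, had fold enrichments of 6.82 and 13.98 with full length and 10.2 and 6.41 with the CTD deletion, and a −log10 p of 15.9 with SOX2 and 11.6 with the fusion. The region chr9:31355166-31357141, nearest to ACO1, the cytosolic aconitase gene, had 5.74, 15, 5.93 and 4.55 in the same 4 libraries and 19.2 and 20.6 in the 2 lists. The third was chr2:22130374-22131599, nearest to TDRD15, with 5, 8.86, 5.08 and 5.67, and 17.2 and 17.4. These regions had no peak in any of the 3 wild-type lists.

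Of the 188 desert regions called in all 9 lists, 46 lay on an acrocentric short arm, within 2 Mb of a centromere band or in a region wider than 5 kb, against 74 of the 2113 full-length gains. The 2 with the highest mean rank were near centromeres, chr17:22521118-22521763 with fold enrichments from 13.8 to 73.0 and chr21:10014600-10015275 with 12.7 to 25.2. The third, chr5:8457121-8458390, 556008 bp from MTRR, a methionine synthase reductase gene, holds the promoters of the lncRNA genes MIR4458HG and LINC02226, which run in opposite directions. It had 9.16 and 11.5 in the libraries labelled wild type, 6.59 and 14.7 with full length, 9.57 and 9.70 with the CTD deletion, and a −log10 p of 66.3, 63.6 and 43.4 in wild type, SOX2 and the fusion. Wild-type and construct values overlapped in the FOXA2 set. Away from centromeres it was followed by chr15:95246819-95247844, nearest to MCTP2, with 6.76 to 17.05, and chr2:4672736-4673716 with 6.29 to 16.4.

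**Figure D5:**
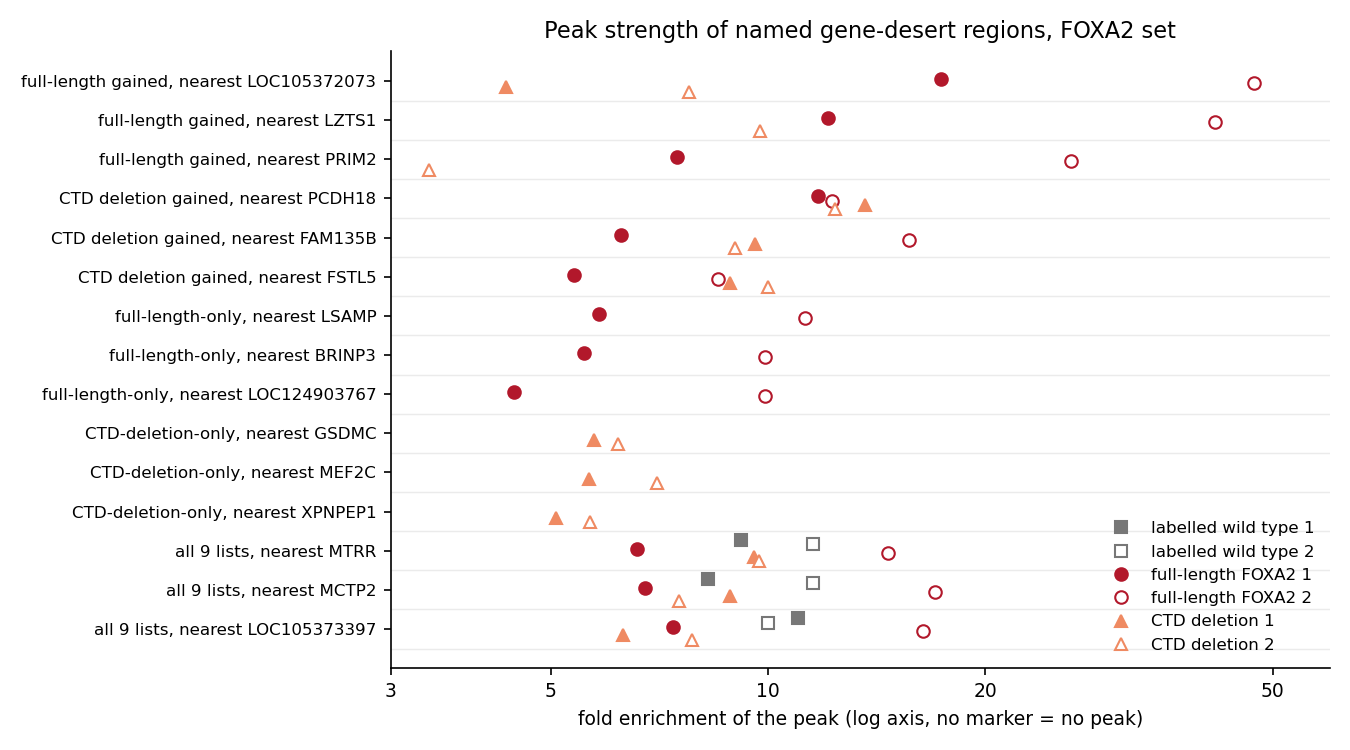
Fold enrichment of the strongest peak (horizontal axis, log scale) in each library of the FOXA2 set for named gene-desert regions, given by class and nearest protein-coding gene; filled and open markers are replicates 1 and 2, and no marker means no peak. Regions gained with full-length FOXA2 reach 47.0 in its second library, regions called with only 1 construct stay between 4.44 and 11.3, and the regions called in all 9 lists carry markers of all 3 groups in overlapping ranges.

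Gene-desert regions at promoters of lncRNA genes were called more often than other gene-desert regions in all 9 lists, by margins that differed between lists. Of the 115 regions at such promoters, 22 and 19 were called in the libraries labelled wild type, 54 and 30 with full-length FOXA2, 41 and 55 with the CTD deletion, 56 in the wild type of the SOX2 set, 71 with SOX2 and 77 with the fusion. In the same order the lists called 4.72%, 5.39%, 38.9%, 13.6%, 18.5%, 35.2%, 27.7%, 36.2% and 44.3% of all regions. Of the 188 desert regions called in all 9 lists 14 lay at an lncRNA promoter, or 7.45% (4.49 to 12.1), against 0.426% (0.224 to 0.808) of full-length gains and 0.182% (0.128 to 0.260) of regions called in 1 list. The MIR222HG promoter (chrX:45770218-45770517), from which the microRNAs miR-221 and miR-222 are made, had a peak or entry in all lists but the second library labelled wild type. Its fold enrichment was 6.02 in the first library labelled wild type, 3.75 and 6.48 with full length and 4.01 and 4.33 with the CTD deletion. The LINC01965 promoter on chromosome 2 was gained with both FOXA2 constructs, with 3.87 and 4.09 with full length and 3.90 and 4.68 with the CTD deletion, but it also had entries in all 3 lists of the SOX2 set, with a −log10 p of 7.69 in wild type. The hairpin of MIR1297, on chromosome 13, lay inside a region gained with the CTD deletion, which had entries in all lists of the SOX2 set.

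The desert gains were spread over many blocks. Of 316 blocks, 254 held at least 1 region gained with full-length FOXA2. The block with the most gene-desert regions was the longest, 3.86 Mb between PCDH7, a protocadherin gene, and ARAP2 on chromosome 4, with 651 regions, of which 60 were gained with full length, 52 with the CTD deletion, 49 with SOX2 and 73 with the fusion. It was followed by IGFBP7 to LOC124900173 on chromosome 4 with 426 regions, CTNNA2 to SUCLG1 on chromosome 2 with 413, LINGO2 to ACO1 on chromosome 9 with 391 and NCAM2 to MRPL39 on chromosome 21 with 378. Ranked by full-length gains, the block between OTOL1 and SI on chromosome 3 came second with 42, LINGO2 to ACO1 had 40, and CTNNA2 to SUCLG1 and NCAM2 to MRPL39 had 34 each. Per Mb the LINGO2 to ACO1 block held 18.4 full-length gains and 15.7 CTD deletion gains, against 9.09 and 7.72 over all blocks. Gene-desert regions of any class numbered 54.6 per Mb of desert on chromosome 13 and 63.3 on chromosome X, the lowest values, and 179.7 on chromosome 8, the highest.

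The share of gene-desert regions that were gained and the density of these regions both varied somewhat with the kind of gene at the border of a block. Blocks next to a listed developmental regulator, a transcription factor or signalling gene such as SOX9, IRX1 or BMP2, numbered 27 and held 1715 gene-desert regions, of which 118, or 6.88%, were gained with full length and 121, or 7.06%, with the CTD deletion. The 65 blocks next to a listed adhesion or synaptic gene held 8618, of which 7.51% were gained with full length and 5.96% with the CTD deletion. The 224 blocks next to neither held 18379, of which 7.33% and 6.32% were gained, and the shares over all 28712 were 7.36% and 6.26%. For SOX2 the shares were 6.997%, 7.81% and 7.66% in the 3 kinds of block, and 7.67% over all. For the fusion they were 10.6%, 12.2% and 11.7%, and 11.8% over all. Per Mb, blocks next to an adhesion or synaptic gene held 111.2 gene-desert regions, 6.63 CTD deletion gains and 0.374 regions called in all 9 lists, against 130.5, 8.25 and 1.04 in blocks next to neither. Regions called in all 9 lists made up 0.337% of the gene-desert regions next to an adhesion or synaptic gene and 0.794% next to neither, and 0.758% next to a developmental regulator. These differences between kinds of block were not tested.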

How the data were processed

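Peak lists of 12 U2OS ATAC-seq samples were used, 9 lists in all, with 1 per sample in the FOXA2 set and 1 per group in the SOX2 set. Per the submitters' processing notes, the tools included FastQC 0.10.1, Trim Galore, Bowtie2 2.4.4, SAMtools 0.1.18, MACS2 and deepTools 2.4.1, on hg38. Settings and the IDR version are not given in the sources used here. The deposited fold enrichment, a ratio over local background, the deposited −log10 p and the deposited score of each peak are the authors' values, and served mainly to order and threshold peaks inside 1 list. Fold enrichments of different libraries are set side by side, and 1 common −log10 p limit was used on the FOXA2 set, without correction for depth. The deposited score column of the IDR lists restates the IDR. That both samples of a group were the IDR inputs is an assumption. Read depth is unknown.

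Peaks on chromosomes 1 to 22 and X were merged at 1 bp of overlap, and distances were taken to protein-coding genes of the RefSeq annotation (GRCh38.p14), predicted LOC models included. Centromere bands were entered by hand, as no band table was used. Shares were compared with exact permutation tests over libraries, and Wilson 95% intervals cover counting error only. Promoter and word searches used the RefSeq promoter table. The named regions are the 3 highest-ranked of each class by strength percentile, plus 2 on each side of the distance threshold and the 5 blocks with the most regions or the most full-length gains. The promoters printed and the other promoters and microRNAs named were chosen after their values were seen. The members and gene lists were chosen with earlier results of these data known. Merging, distances and shares with their Wilson intervals were checked on cases with known answers, most of them simulated. The exact tests were not checked in this way. Calculations used Python 3.11.15, NumPy 2.4.6 and pandas 2.3.3. Alternatives covered list length, thresholds, covered bases, distance, centromere margins and left-out libraries.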

Additional observations from a re-analysis of the deposited data

How the results depend on the processing

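No share difference of the FOXA2 set could pass a 0.05 threshold with these numbers of libraries, so settings can change only its direction or size. The sole reversal was full length minus CTD deletion, at 0.68 points with all libraries, which was -0.13 without full-length replicate 1, 1.49 without full-length replicate 2, 0.10 without CTD deletion replicate 1 and 1.27 without CTD deletion replicate 2. Leaving out 1 library at a time gave 2.19 to 3.81 points for full length minus wild type, 1.73 to 2.91 for CTD deletion minus wild type and 2.28 to 2.98 for both constructs minus wild type. With the replicate number as a block the differences were 3.00, 2.32 and 0.68 points (exact sign-flip test, p = 0.5, 0.5 and 1). The labels give no shared day or batch for a number, and call differences between replicates 1 and 2 over desert regions had correlations of 0.08, -0.03 and 0.11 between groups, so the samples were taken to share only a number. Covered bases gave 2.15, 1.29, 0.86 and 1.72 points for the 4 differences in the same order as above. Without peaks wider than 5 kb, added after the values were seen, they were 2.95, 2.51, 0.43 and 2.73.

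For SOX2 minus wild type, fusion minus wild type and fusion minus SOX2, the values were 2.397, 3.30 and 0.90 points at an IDR of at most 0.05, 3.27, 4.09 and 0.83 with deserts beyond 250 kb, and 0.63, 0.75 and 0.12 beyond 1 Mb. By covered bases the 2 fusion differences were 2.73 and 0.69. Desert shares of gains with full length, the CTD deletion, SOX2 and the fusion were 15.6%, 14.7%, 20.1% and 20.5% beyond 250 kb and 2.45%, 1.88%, 2.80% and 2.85% beyond 1 Mb, where less of the genome qualifies. Equal numbers of peaks gave 11.5% and 10.4% for the FOXA2 constructs, leaving out 1 library gave 7.85% to 8.57% and 6.31% to 7.60%, and leaving out SOX2-set wild-type entries gave 11.4% and 10.1%. If absence in wild type meant only no entry at an IDR of at most 0.05, SOX2 and fusion gains had 8.47% and 9.29%.

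Desert gains of full length were called with the CTD deletion in 47.5% of cases with equal numbers of peaks, 43.5% at a common −log10 p and 40.04% when the peak had to cover 50% of the region. Leaving out 1 library gave 21.99% (without full-length replicate 2, where single calls of replicate 1 enter) to 75.2%. For desert gains of the CTD deletion called with full length the 50% rule gave 43.0%, and leaving out 1 library gave 28.5% (without CTD deletion replicate 1) to 79.7%. Wider centromere margins, and leaving out short arms, band flanks and wide regions, which was added after the values were seen, kept each value within its spread or interval. The planned count of forkhead words inside gained regions, with its windows and spellings, was not run, since no genome sequence was used.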
